A study of Mus musculus with 7 samples.

Results

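Apolipoproteins, the proteins that handle lipid around them and the receptors that bind them were examined in pancreatic islets of mice lacking Abca12 in beta cells. The set was chosen by gene symbol, with earlier results of these data known. It holds 9 of the 34245 genes listed in the deposited table: Apoe, Apob, Apoc1, Mttp, Clu, Pltp, Lpl, Lrp1 and Vldlr. Whole islets were taken at 8 weeks of age from C57BL/6J mice, and polyA-selected RNA was sequenced from 2 control and 5 knockout (KO) animals. Every animal carried Rip1-Cre, a Cre recombinase driven by a rat insulin promoter and so aimed at beta cells. In the KO group (Abca12 tm1d) it deleted the floxed Abca12 gene, which encodes an ABC family lipid transporter. Control 1 had Cre with wild-type Abca12, and Control 2 had Cre and was heterozygous for the floxed allele. Each library is 1 named animal, and whether animals shared a litter or a day is not stated, so p-values reflect only how these 7 libraries vary.

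Lipoproteins are particles that carry cholesterol and triglyceride through blood and between cells. Apolipoprotein B is their large structural protein, and the microsomal triglyceride transfer protein Mttp loads it with lipid in the endoplasmic reticulum. Smaller exchangeable apolipoproteins such as Apoe and Apoc1 move between particles, lipoprotein lipase (Lpl) releases fatty acids from them, and receptors of the LDL receptor family such as Lrp1 and Vldlr take them up. Liver and intestine are the main sources of Apob-containing particles. Islets are known to express Lpl, and Abca1-dependent cholesterol export to apolipoproteins is known to affect insulin secretion.

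Values are depth-scaled reads (RPM), that is, reads divided by the depth of each library. The libraries were scaled to 23922958 to 43117314 reads, of which 54.6% to 57.0% fell in listed genes. KO 1 and KO 2 carry the letter f in their column headers and the other 5 libraries the letter m, so the f libraries lie in the KO group alone. Abca12 itself was listed at 0 reads in all 7 libraries, controls included, so it checks no label, and with 0 reads a level of 0.0696 to 0.125 RPM (3 reads, by library) could have been missed. Beta cell markers were abundant, with 10 markers summing to 70004 and 77096 RPM in the controls and to between 59671 and 88163 RPM in KO. Acinar markers, which come from the exocrine pancreas, summed to 827 and 407 RPM in the controls and reached 3036, 10457, 10527, 1711 and 2029 RPM across KO 1 to KO 5. In bulk islets fewer cells of a type and less RNA per cell cannot be told apart.

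Apob carried the greatest difference of the set, and Clu the greatest in the other direction. None of the 9 genes passed the test over all genes (limma on log2(RPM + 1), adjusted p under 0.05), a test that 0.0617% of the 16212 genes tested passed. Of the 9 genes 8 reached the level needed for the test, and Apoc1 did not. Among these 8, Apob, Mttp and Apoe lay below both controls in 5 of 5 KO libraries and Clu lay above both in 5 of 5. Groups failed to overlap in this way for 15.2% of all genes tested, 8.41% with KO lower and 6.75% with KO higher. The median log2 fold change of the 8 genes was -0.24, beside -0.01 over all genes tested, and 5 of the 8 were below 0, as were 51.7% of all genes. Because the set was chosen with earlier results of these data known, these comparisons with all genes are a description only.

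**Figure D1:**
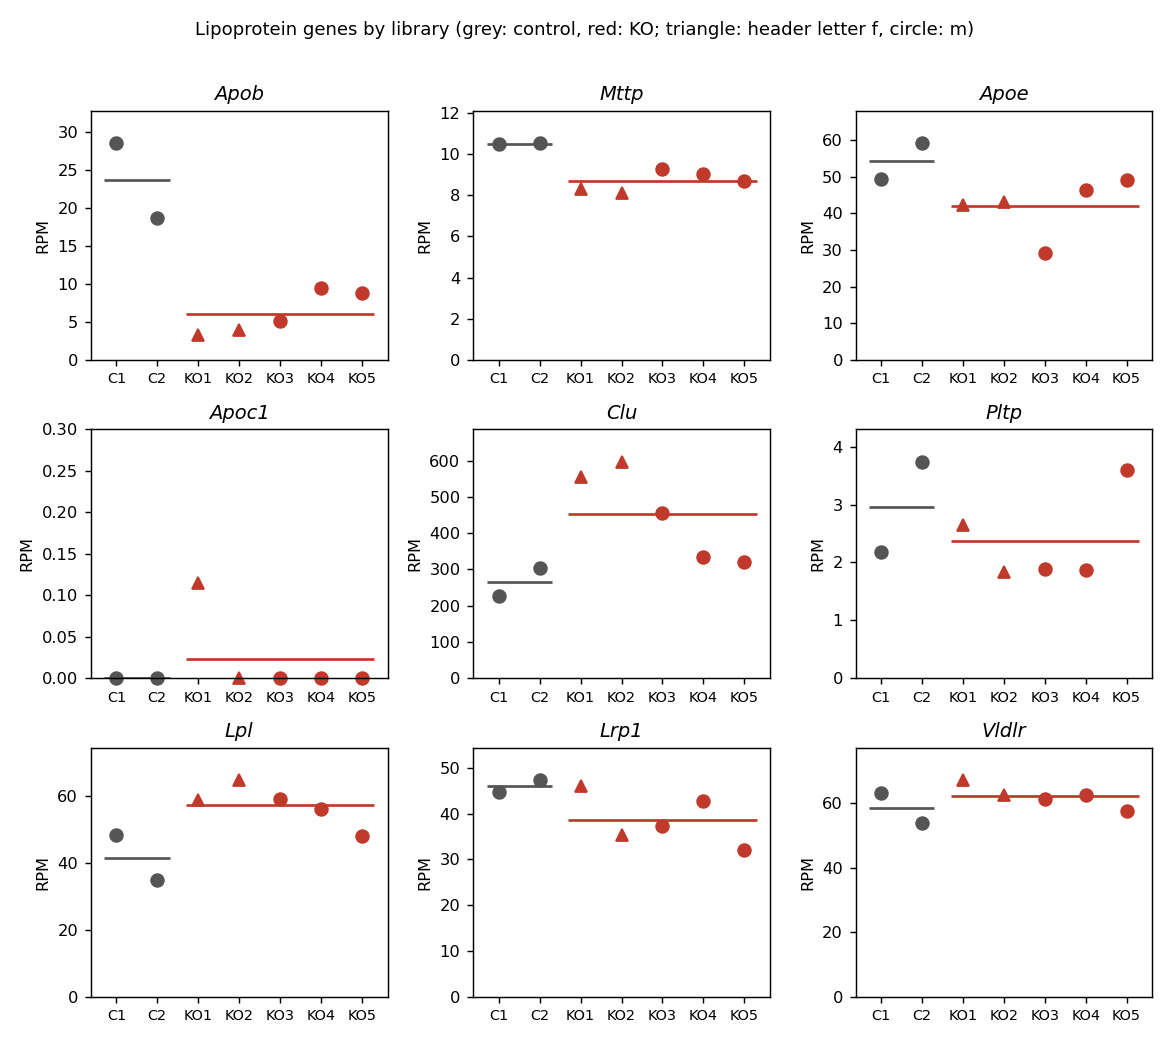
Level of each of the 9 genes in RPM (vertical axis, from 0) in the 2 control (C1, C2, grey) and 5 KO (red) libraries, with horizontal lines at the group means, triangles for libraries with f in the header and circles for m. Apob stands at 18.8 RPM or more in the controls and at 9.41 RPM or less in KO, while Vldlr stays between 53.8 and 66.9 RPM throughout.

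The stretch before the start of Apob is shown because Apob carries the greatest difference. It is set beside that of Apoe, another apolipoprotein of the set, with many reads but a small difference. Both come from RefSeq on GRCm38.p6, 5′ to 3′ on the gene's own strand, and stop before the first annotated base of the gene. Capitals mark the TATA box letters (TATAAA).

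Apob, chr12:7977427-7977647, plus strand: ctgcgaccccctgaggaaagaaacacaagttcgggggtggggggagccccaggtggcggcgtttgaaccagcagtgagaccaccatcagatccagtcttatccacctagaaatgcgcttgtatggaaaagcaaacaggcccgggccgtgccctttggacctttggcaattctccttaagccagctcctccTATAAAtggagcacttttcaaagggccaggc
Apoe, chr7:19699189-19699438, minus strand: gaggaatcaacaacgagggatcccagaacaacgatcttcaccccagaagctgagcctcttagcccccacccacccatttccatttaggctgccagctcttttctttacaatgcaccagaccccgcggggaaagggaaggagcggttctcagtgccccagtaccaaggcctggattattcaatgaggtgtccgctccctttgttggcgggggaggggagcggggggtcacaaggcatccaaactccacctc

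Promoter windows of 250 bases before to 50 after a start were searched on both strands for 5 short motifs, and matches to different motifs did not overlap. They were the TATA box with the letters TATAAA, and the GC box with the letters GGGCGG. The E box has the letters CACGTG. A core bound by nuclear receptors has the letters AGGTCA. The last was the CCAAT box. The table held windows for 6 of the 9 genes, Apob, Apoe, Mttp, Pltp, Lrp1 and Vldlr. In Apob the TATA letters began 31 bases before the start in GENCODE M21 and 60 before that in RefSeq, and 13.6% of the 32851 windows in the table hold these letters on either strand. The Pltp window and 1 of 3 Apoe windows also held them. The printed Apoe stretch held no match to the 5 motifs, which says only that these letters are not in it. GGGCGG was found in the Mttp, Pltp and Lrp1 windows and in 1 of the Vldlr windows, against 35.7% of all windows. AGGTCA was found in none of the windows of these genes, against 16.3% of all. These matches describe the sequence and are not shown to be used in islets.

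Apob (chromosome 12, 7977648 to 8016835, plus strand, GRCm38) averaged 0.258 of its control level in KO islets. It stood at 28.5 RPM in Control 1 and at 18.8 RPM in Control 2. The values of KO 1 to KO 5 were 3.26, 3.87, 5.15, 9.41 and 8.79 RPM. The groups were far apart, with the highest KO library below the lower control, and KO 1 and KO 2, the f libraries, were the lowest of all. The means were 23.7 ± 6.91 (SD, n = 2) and 6.10 ± 2.84 (SD, n = 5) RPM, a ratio of control to KO of 3.88. The log2 fold change was -1.86 (SE 0.31, 95% interval -2.55 to -1.18), and the adjusted p of 0.0613 by limma missed the threshold. Each value rests on 85 to 683 reads.

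Few genes had a log2 fold change as low as that of Apob on the log2(RPM + 1) scale, which shrinks the differences of low genes. By the ratio of means Apob was not so rare. Gpnmb, for example, had a control to KO ratio of 4.14, above the 3.88 of Apob, but a log2 fold change of -1.58. Only 4 of the 16212 genes tested (0.0247%) were at or below the log2 fold change of Apob (-1.86), Apob included. The other 3 were the Y-linked genes Ddx3y, Eif2s3y and Uty, which the f libraries lack or nearly lack. Uty, for example, stood at 0.0383 and 0.0376 RPM in KO 1 and KO 2, and at 18.5 RPM or more in each m library. Among the m libraries alone, 2 controls and 3 KO, the log2 fold change of Apob was -1.50 and the adjusted p by limma was 0.0334. With the header letter as a covariate it was -1.50 with an adjusted p of 0.0899 by limma.

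The call for Apob turned on the setting while its direction did not. Across 19 alternatives, the replicate block left aside, its log2 fold change ran from -2.15 to -1.50 and its adjusted p by limma from 0.0334 to 0.257. Beside the m libraries alone, it passed with voom on the recovered reads (adjusted p = 0.0406 by limma) and without KO 5 (adjusted p = 0.0472 by limma). In the authors' deposited table of 136 selected genes Apob had a log2 difference of -2.06, a control to KO ratio of 4.16 and a corrected p of 0.0201. Their ratio comes from the difference of mean log2 values, while the 3.88 given above is a ratio of mean RPM. The measures are therefore unlike. With a pseudocount of 0.1 in place of 1, the log2 fold change by limma was -2.03. The authors' deposited table holds none of the other 8 genes, and its test is not named in the file header.

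**Figure D2:**
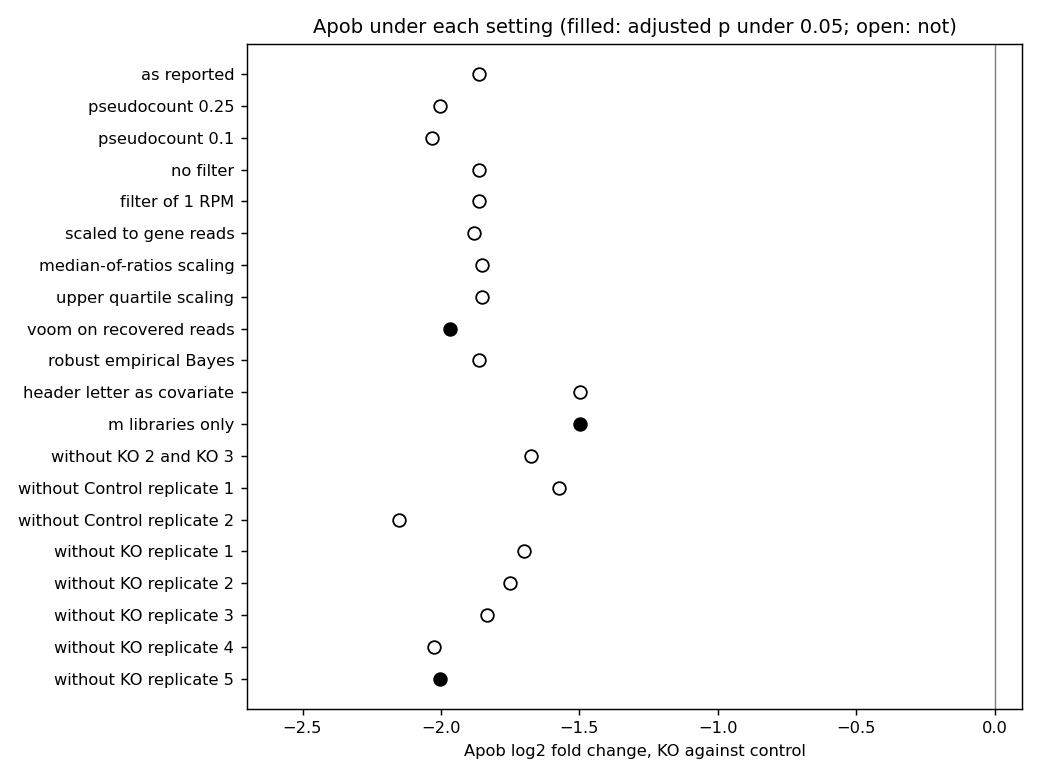
Log2 fold change of Apob, KO against control, under the reported fit and 19 alternatives, without the replicate block (horizontal axis), filled where the adjusted p was under 0.05. Values run from -2.15 to -1.50, all below 0, with 3 filled points.

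Mttp (chromosome 3, 138089854 to 138144968, minus strand), which lipidates apolipoprotein B, differed by far less. It stood at 10.5 RPM in both controls and at 8.31, 8.11, 9.28, 9.01 and 8.70 RPM in KO 1 to KO 5. All 5 KO libraries lay below the controls, which differed from each other by little (10.5 ± 0.0179, n = 2, and 8.68 ± 0.481, n = 5). The log2 fold change was -0.25 (SE 0.11, adjusted p = 0.423 by limma). Its exons share 457 bases with Trmt10a and 132 with the antisense gene Gm43691, both on the opposite strand. The strand setting of the counting is not given in the sources used here, so the level of Mttp is uncertain to that extent. Trmt10a stood at 4.44 ± 0.195 and 4.66 ± 0.588 RPM.

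Per kilobase of exon, Apob stood lower against Mttp in KO than in the controls. In Control 1 and Control 2 the Apob level per kilobase was 1.21 and 0.795 times that of Mttp. In KO 1 to KO 5 it was 0.175, 0.212, 0.247, 0.465 and 0.450 times that of Mttp. With the length of the longest transcript in place of the union of exons, the ratio was 0.774 and 0.508 in the controls and 0.111 to 0.297 in KO. The ratio within a library does not depend on its depth. The KO libraries did not overlap the controls in it, as they did not for Apob alone, nor for 15.2% of all genes tested. The choice of length rescales the ratio alike in all libraries and so cannot alter this.

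Most markers of hepatocytes and enterocytes, which make Apob-containing particles, were low or absent, but Vil1 was not. Alpi and Fabp1 had no reads in any library, and Alb stood at 0 in both controls and at 0.278 RPM or less in KO. Of the 9 markers 8 were in the table, and their sum of 57.6 to 64.6 RPM in the controls and 49.1 to 60.1 RPM in KO was made up mostly of Vil1 (59.3 ± 4.21 and 54.5 ± 4.14 RPM). Apobec1, which edits Apob messenger RNA in other tissues, averaged 28.5 ± 3.16 and 27.6 ± 1.62 RPM (adjusted p = 0.909 by limma).

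Apoe (chromosome 7, 19696109 to 19699188, minus strand), the ligand of LDL receptor family members, was the second most abundant of the set per length. It stood at 49.3 and 59.1 RPM in the controls and at 42.4, 43.1, 29.1, 46.5 and 49.1 RPM in KO 1 to KO 5. The KO libraries lay below both controls, but KO 5 (49.1) all but reached Control 1 (49.3) and KO 3 stood apart at the bottom. The log2 fold change was -0.37 (SE 0.16, 95% interval -0.72 to -0.03, adjusted p = 0.422 by limma). It was -0.25 without KO 3 and -0.25 without Control 2.

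Macrophages, which make much Apoe in many tissues, were measured beside it. The 14 macrophage markers summed to 74.7 and 119 RPM in the controls and to 63.6 to 85.4 RPM in KO, and none of them was at 0 throughout. The highest sum (Control 2) and the lowest (KO 3) were the libraries with the highest and lowest Apoe, and the part of these cells in the Apoe values was not tested. Of the 14 markers 8 were lower and 6 higher in KO, with a median log2 fold change of -0.04. The 1 that passed was Gpnmb, a macrophage glycoprotein, with means of 8.41 ± 3.92 and 2.03 ± 0.276 RPM (adjusted p = 0.0229 by limma), while C1qa stood at 15.5 ± 0.241 and 14.6 ± 1.54 RPM.

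Apoc1 (chromosome 7, 19689481 to 19692660, minus strand), the neighbour of Apoe and an inhibitor of lipoprotein uptake, was not detected in 6 of 7 libraries. KO 1 held 3 reads, or 0.115 RPM. The 0 reads of the other libraries allow up to 0.0696 to 0.125 RPM, so no comparison can be made at this depth.

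Clu (chromosome 14, 65968483 to 65981547, plus strand), a secreted chaperone also called apolipoprotein J, was the most abundant of the set. It stood at 227 and 304 RPM in the controls and at 556, 597, 456, 334 and 321 RPM in KO 1 to KO 5. All 5 KO libraries were above both controls, KO 1 to KO 3 by far and KO 4 and KO 5 by little. The means were 266 ± 54.9 (n = 2) and 453 ± 125 (n = 5) RPM, with a log2 fold change of 0.74 (SE 0.22, 95% interval 0.26 to 1.21, adjusted p = 0.239 by limma). The libraries with the lowest Apob (KO 1 to KO 3) were those with the highest Clu.

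Markers of other cell types are set beside Clu, and some followed it in part. The acinar sum was highest in KO 2 and KO 3, and without those libraries the log2 fold change of Clu was 0.57. Among the m libraries alone it was 0.48. All 14 tested acinar markers were higher in KO on average, with a median log2 fold change of 2.76, and 0 passed over all genes. The 6 delta and PP cell markers summed to 1589 and 1300 RPM in the controls and to 2674, 2178, 2281, 1719 and 1940 RPM in KO 1 to KO 5, and 0 passed. KO 1 to KO 3 were the 3 highest libraries for this sum as for Clu. Alpha cell markers summed to 3297 and 3407 RPM in the controls and to 7403, 4458, 6394, 3543 and 2702 RPM in KO 1 to KO 5. The 10 duct markers, most of whose reads were Spp1, summed to 2159 and 2218 RPM in the controls and to 2433, 2409, 1844, 1812 and 2556 RPM in KO 1 to KO 5, highest in the KO library with the lowest Clu. Single duct markers differed from this sum, with 6 of the 10 higher and 4 lower in KO on average, and 0 passed. Krt8 stood at 201 and 226 RPM in the controls and at 292 to 374 RPM in KO. Krt18 stood at 179 and 171 RPM in the controls and at 219 to 269 RPM in KO. Both were above both controls in 5 of 5 KO libraries, as were 6.75% of all genes tested, and highest in KO 1 to KO 3. Between the controls the acinar and delta and PP sums were lower in Control 2, where Clu was higher. None of the markers on these 4 lists was at 0 throughout. The part of these cells in the Clu values was not tested.

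**Figure D3:**
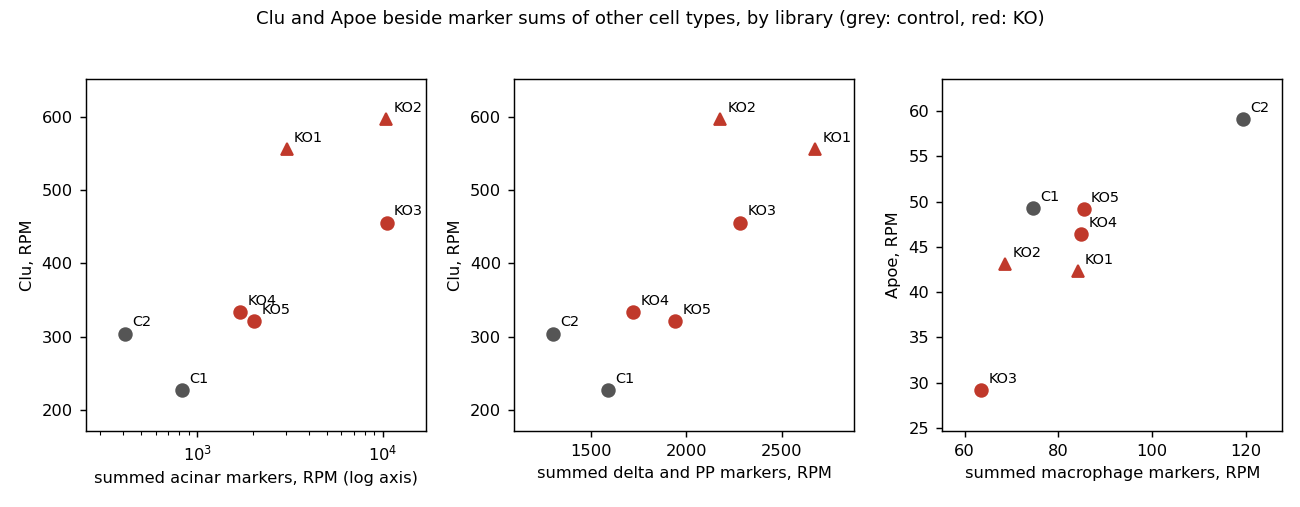
Clu in RPM against the summed level of acinar markers (log axis) and of delta and PP cell markers, and Apoe in RPM against summed macrophage markers, 1 point per library (grey control, red KO, triangles f in the header). KO 1 to KO 3 stand highest for Clu (456 to 597 RPM) and for the delta and PP sum (2178 to 2674 RPM), and KO 3 is lowest for Apoe (29.1 RPM).

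Pltp (chromosome 2, 164839518 to 164857711, minus strand), which moves phospholipid between lipoproteins, was low. It stood at 2.17 and 3.74 RPM in the controls and at 1.84 to 3.60 RPM in KO, with 49 to 155 reads per library. KO 1 and KO 5 lay between the controls and the other 3 KO libraries below both. The log2 fold change was -0.23 (SE 0.22, adjusted p = 0.764 by limma), and it was 0.059 without Control 2. Its exons share 495 bases with Ctsa on the opposite strand, which stood at 82.8 ± 11.0 and 69.9 ± 4.54 RPM, so reads of Ctsa may be counted in it if strand was not used.

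Lpl (chromosome 8, 68880491 to 68907448, plus strand), the lipase that frees fatty acids from lipoprotein triglyceride, stood at 48.5 and 34.8 RPM in the controls and at 58.8, 64.75, 59.3, 56.2 and 48.1 RPM in KO 1 to KO 5. Of the 5 KO libraries 4 were above both controls and KO 5 fell between them. The means were 41.7 ± 9.68 (n = 2) and 57.4 ± 6.07 (n = 5) RPM, with a log2 fold change of 0.47 (SE 0.13, 95% interval 0.19 to 0.74, adjusted p = 0.193 by limma). Control 2 was the lowest library, and without it the log2 fold change was 0.23. Without Control 1 it was 0.70, with an adjusted p of 0.0336 by limma, a fit with 1 control.

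**Figure D4:**
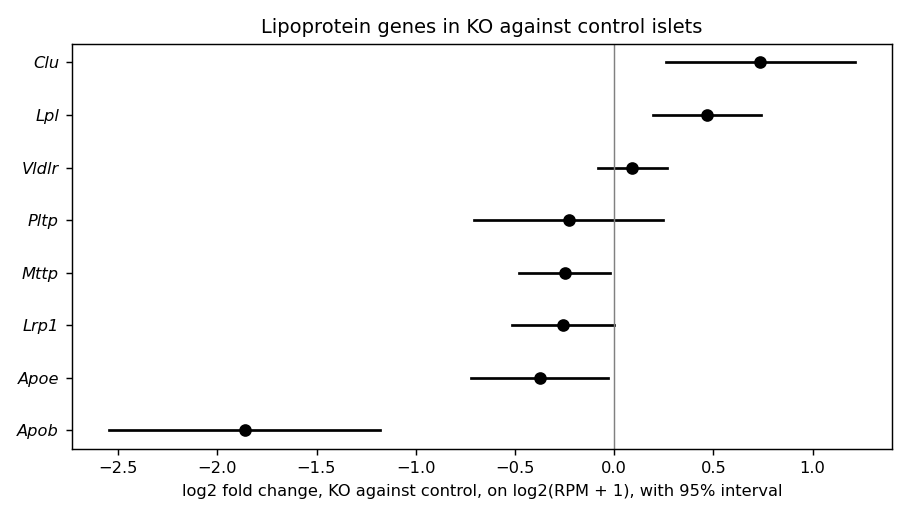
Log2 fold change of the 8 tested genes, KO against control, on log2(RPM + 1), as points with 95% intervals from the limma fit. The intervals of Apob (-2.55 to -1.18), Apoe (-0.72 to -0.03) and Mttp (-0.48 to -0.02) lie wholly below 0 and those of Clu (0.26 to 1.21) and Lpl (0.19 to 0.74) wholly above it, before adjustment over all genes. These 5 have an unadjusted p under 0.05 by limma, as do 10.8% of all genes tested.

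The receptors Lrp1 and Vldlr come last. Lrp1 (chromosome 10, 127538161 to 127621148, minus strand), a large endocytic receptor for Apoe-bearing particles and many other ligands, stood at 44.8 and 47.3 RPM in the controls and at 46.0, 35.3, 37.3, 42.8 and 32.0 RPM in KO 1 to KO 5. KO 1 lay among the controls and the other 4 KO libraries below them. The log2 fold change was -0.26 (SE 0.12, adjusted p = 0.463 by limma). Vldlr (chromosome 19, 27216484 to 27254231, plus strand), a receptor that binds Apoe-bearing particles, stood at 62.9 and 53.8 RPM in the controls and at 57.5 to 66.9 RPM in KO. Its log2 fold change was 0.09 (SE 0.08, 95% interval -0.08 to 0.27, adjusted p = 0.733 by limma), and it was -0.019 without Control 2. Stromal cells are rich in Lrp1 in many tissues, and the 13 stellate cell and fibroblast markers summed to 53.7 and 156 RPM in Control 1 and Control 2 and to 40.8 to 56.1 RPM in KO. None of these markers was at 0 throughout, and their part in the Lrp1 values was not tested.

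Per kilobase of exon (RPM per kb, union of annotated exons) the order of mean levels over the 7 libraries was Clu, Apoe, Vldlr, Lpl, Lrp1, Mttp, Pltp, Apob and Apoc1, as it was over the 5 KO libraries. Over the 2 controls Apob (1.698 RPM per kb) came just ahead of Mttp (1.693), less than the spread between the controls, and both ahead of Pltp (1.153). Clu averaged 116 RPM per kb, ahead of 99.2% of the tested genes that could be given a length, and Apoe had 21.3. The ranges of Clu and Apoe over the libraries did not overlap each other or that of Vldlr (5.34 to 6.65). Vldlr and Lpl (3.33 to 6.18) overlapped, as did Mttp (1.31 to 1.695), Pltp (0.718 to 1.46) and Apob (0.234 to 2.05) among themselves. Lrp1 (1.81 to 2.67) lay below Lpl and above Mttp with no overlap, while Apob in Control 1 reached into its range. With the length of the longest transcript in place of exon union, Lpl moved ahead of Vldlr.

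**Figure D5:**
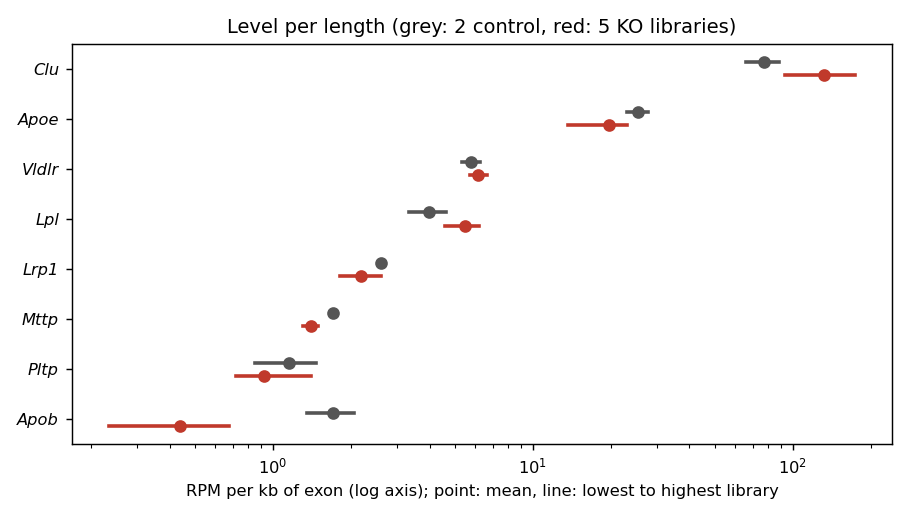
Mean level of 8 genes in RPM per kb of exon (log axis; points) with lines from the lowest to the highest library, for 2 control (grey) and 5 KO (red) libraries. Apob has a control range of 1.35 to 2.05 and a KO range of 0.234 to 0.676 RPM per kb, and Apoc1 is left out because it was at 0 in 6 libraries.

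The wider pathway showed no gene past the threshold. Beyond the 9 genes, 67 of 94 listed pathway genes were tested, 0 passed over all genes by limma, and 6 had an unadjusted p under 0.05, beside 10.8% of all genes tested. Among other apolipoproteins 16 of 21 were below the level needed, and Apoo and Apool, proteins of the mitochondrial inner membrane, stood at 12.7 ± 0.616 and 11.8 ± 0.906 RPM and at 3.05 ± 0.599 and 3.72 ± 0.636 RPM (control, then KO). The 5 tested had a median log2 fold change of -0.03. Apoa2, a liver apolipoprotein of HDL, was among them at 1.03 to 1.88 RPM in the controls.

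Of 22 genes of the LDL receptor family and its regulators 21 were tested, 9 higher and 12 lower in KO, with a median of -0.02. Lsr, a receptor for triglyceride-rich lipoproteins, stood at 43.6 ± 1.12 and 50.5 ± 0.823 RPM, above both controls in 5 of 5 KO libraries (log2 fold change 0.21, adjusted p = 0.245 by limma). It was the only 1 of the 21 whose groups did not overlap, beside 15.2% of all genes tested. Sorl1, a sorting receptor, stood at 129 ± 13.6 and 153 ± 15.5 RPM, and Lrp11 was the most abundant at 170 ± 2.38 and 168 ± 4.72 RPM. For assembly and secretion 12 of 15 genes were tested, with a median of 0.01. Sort1, a sorting receptor that binds apolipoprotein B, stood at 100.3 ± 1.96 and 90.8 ± 3.53 RPM, below both controls in 5 of 5 KO libraries (adjusted p = 0.452 by limma). Of these 12 genes 2 lay wholly above both controls in KO and 2 wholly below. The coat protein gene Sec23a stood at 26.1 ± 3.52 and 22.7 ± 0.807 RPM, and P4hb, the partner subunit of Mttp, at 1233 ± 12.9 and 1334 ± 72.6 RPM.

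Of 15 lipases and their regulators 10 were tested, 3 higher and 7 lower, with a median of -0.08. Lipa, the lysosomal acid lipase, stood at 17.3 ± 3.68 and 12.1 ± 1.69 RPM (log2 fold change -0.48, adjusted p = 0.241 by limma). Pla2g7, a phospholipase carried on lipoproteins, stood at 4.68 ± 0.355 and 3.30 ± 0.732 RPM. Both were below the controls in 5 of 5 KO libraries, the only 2 of the 10 whose groups did not overlap, beside 15.2% of all genes tested. Sel1l, needed for Lpl maturation, stood at 220 ± 1.16 and 212 ± 15.6 RPM. Of 16 scavenger and proteoglycan receptors 14 were tested, 7 higher and 7 lower, with a median of -0.05. Syndecan 1 (Sdc1), a heparan sulfate proteoglycan that binds remnant particles, stood at 6.43 ± 1.94 and 9.64 ± 2.68 RPM, the scavenger receptor Stab2 at 1.56 ± 0.608 and 2.38 ± 0.761, and the lysosomal membrane protein Scarb2 at 162 ± 4.96 and 168 ± 7.09.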

How the data were processed

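Islet RNA was sequenced as polyA-selected directional libraries, per the labels' protocols. HISAT2, DESeq2 and GRCm38 appear in the submitters' processing notes, without version or role; neither the counting software nor its strand setting is stated. Deposited by the authors were values on a log2 scale. Raised as a power of 2, values fell on whole multiples of a step set by the library (100% of values under 200 reads, within 0.02), with genes at 0 reads stored as 0.9 of a step, so RPM and reads were recovered. The authors also deposited a table of 136 genes with mean log2 values, a fold (ratio) and a corrected p-value.

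Genes with at least 10 reads at the median depth (0.366 RPM) in at least 2 libraries were tested. KO was set against control with limma 3.58.1 (trend) in R 4.3.3 on log2(RPM + 1), two-sided, adjusted by Benjamini-Hochberg over 16212 genes at 0.05. For low genes this scale makes a change look smaller than it is. Groups were taken from sample titles. The 21 pairs of libraries all differed beyond sampling noise (lowest chi-square over its degrees of freedom 8.83). Floors from reads cover counting error only. Positions matched GENCODE M21 exactly for 92.6% of genes, and for each of the 9 members.

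The members and lists were chosen with earlier results of these data known. Named genes are the members and, for each list, those past the threshold or the 2 with the smallest p, plus the most abundant; for each member, the 2 genes of at least 5 RPM most like it by Pearson r; and Abca12. Of each marker list the most abundant gene and that with the smallest p could be named. Apobec1, Alb, Alpi, Fabp1, Fga, Apoa2, Krt18, Gm43691, Trmt10a, Ctsa, Ddx3y, Eif2s3y and Uty were chosen after their values were seen. Mia3 was left out because its symbol stands at 2 positions. On simulated data for KO against control (16212 genes, 5 runs) the share of altered genes found was 60.9% at a 1.5-fold change, 85.1% at 2-fold and 97.3% at 4-fold, with 5.70% false calls. The simulated noise followed the trend of spread with level in the KO libraries and was drawn for each gene separately. Shifts that genes of 1 library share, and the 2 control genotypes, were not simulated. These shares may therefore not hold in the data, where Apob, with a ratio of 3.88, missed the threshold. Alternatives covered pseudocounts, filters, scaling, voom, robust fitting, the header letter, the replicate number and left-out libraries.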

Additional observations from a re-analysis of the deposited data

How the results depend on the processing

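Apob, Apoe, Mttp, Clu, Lpl and Lrp1 kept their direction under all 20 alternatives. Pltp and Vldlr turned without Control 2, and with 1 library left out ran from -0.52 to 0.059 (Pltp) and from -0.019 to 0.20 (Vldlr). The count of members past the threshold was 0, and 1 with voom or in the m libraries alone, and ranged from 0 to 1 with 1 library left out. The count of all genes past the threshold was 10. It was 4 without a filter, 20 by median-of-ratios scaling (13 higher), 19 by upper quartile scaling (12 higher), 42 with robust empirical Bayes (24 higher), 3 with the header letter as covariate and 47 without KO 2 and KO 3 (41 higher), and ranged from 2 (without Control 2, or without KO 4) to 127 (without Control 1, 32 higher) with 1 library left out. Members whose groups did not overlap numbered 4, and 4 to 8 (8 without Control 1) with 1 library left out. With fewer libraries groups more easily fail to overlap, most of all with 1 control. The share over all genes was not obtained with 1 library left out, so the count of 8 cannot be read as particular to the members. The members' median log2 fold change was -0.27 to -0.12 with 1 library left out. Leaving out a control sets 1 mouse against 5, with its spread taken to be that of the KO group. It also changes the control genotype, to the heterozygote without Control 1 and to wild-type Abca12 without Control 2. Genotype and animal cannot be told apart between the controls. The levels order kept 7 of 9 places with the longest transcript. The labels do not say that replicate numbers pair the animals, and deviations of same-numbered libraries correlated at -0.0992 and -0.240. Only replicate numbers 1 and 2 include a control. The replicate block fit therefore sets KO 1 and KO 2, the f libraries, against Control 1 and Control 2, both m. Group and header letter cannot be told apart in it, and KO 3 to KO 5 add nothing to its estimate. In that fit 2 members passed (Apob at -2.41, adjusted p = 0.0371 by limma, and Clu at 1.13, adjusted p = 0.0497 by limma) and 11 genes in all. The cause was not tested. Depth limits Apoc1 (3 reads in all) and Pltp (49 to 155 reads).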

Other observations

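Genes whose level followed that of a member most closely over the 7 libraries are given as a description, since such values share library, depth and group. For Apob they were Atp2b2, a plasma membrane calcium pump (Pearson r = 0.990), and Cpne4 (r = 0.987), among 10354 genes of at least 5 RPM. Atp2b2 stood at 33.2 and 25.9 RPM in the controls and at 15.5, 16.8, 18.9, 22.2 and 21.1 RPM in KO 1 to KO 5. Cpne4 stood at 6.65 and 6.45 RPM in the controls and at 3.91 to 5.10 RPM in KO. For Lpl they were the neuropeptide genes Tac1 (r = 0.988) and Vip (r = 0.978), with Vip at 3.85 and 0.0301 RPM in the controls and 3.41 to 10.4 RPM in KO. For Clu they were Plcb4 (r = 0.973) and the integrin gene Itgb4 (r = 0.948), the latter at 5.85 and 8.53 RPM in the controls and 8.54 to 19.6 RPM in KO. For Apoe they were Adam9 (r = 0.980) and Galnt14 (r = 0.969), for Mttp Rasal2 (r = 0.989) and Sparcl1 (r = 0.977), and for Lrp1 Man2a2 (r = 0.970) and Gatad2b (r = 0.969). Pltp was followed by Pyurf (r = 0.985) and P3h4 (r = 0.981), and Vldlr by Ccdc120 (r = 0.976) and the endoplasmic reticulum chaperone gene Pdia4 (r = 0.971).

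The neighbours of Apoe on chromosome 7 showed no common direction with it. Of 7 genes 6 were tested, 4 higher and 2 lower in KO, with a median log2 fold change of 0.09, and 0 passed over all genes by limma. Relb, an NF-kappa-B subunit, stood at 5.15 ± 0.305 (n = 2) and 4.11 ± 0.0449 (n = 5) RPM (log2 fold change -0.26, adjusted p = 0.467 by limma). Nectin2 stood at 22.5 ± 3.91 and 25.6 ± 2.04 RPM and Clptm1 at 76.6 ± 1.04 and 79.8 ± 3.77 RPM. Apoc4 had no reads in any library. Endothelial markers summed to 207 and 256 RPM in the controls and 136 to 193 RPM in KO. Leukocyte markers summed to 5.27 and 28.8 RPM in the controls and 3.60 to 6.77 RPM in KO. Adipocyte markers summed to 6.48 and 6.99 RPM in the controls and 5.15 to 7.47 RPM in KO. Schwann cell markers summed to 5.52 and 4.46 RPM in the controls and 4.03 to 5.82 RPM in KO.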
